A study of Mus musculus with 6 samples.

Results

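The serpins are a family of protease inhibitors that share 1 fold, and their transcripts were followed here in 6 bulk RNA-seq libraries of mouse liver. Members were taken by name alone, as every gene symbol made of Serpin, a clade letter from a to i, a number and, where present, a paralog letter. The rule found 46 genes among the 22599 of the count table, of which 23 belong to clade A, 13 to clade B, 3 to clade E, 2 to clade F and 1 each to clades C, D, G, H and I. The control group (flox, n = 3) is described in the labels as wild type and comes from mice with floxed Ncor1 alleles. The other group (NcoR1ΔHep, n = 3) is labelled as an Ncor1 knockdown and comes from mice that lack this nuclear-receptor corepressor in hepatocytes. Every title places its library at 0 h, yet the treatment field of all 6 names liver ischemia-reperfusion, so both groups share that label. The labels used here give no age, sex, strain or Cre driver. They also leave unsaid whether the 3 libraries of a group stand for 3 mice, and the p-values cover the spread among libraries, which may be partly technical.

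Most serpins act as decoys. The target protease cuts an exposed reactive loop, the serpin snaps into a new shape, and both proteins stay locked together until receptors of the liver clear them. Hepatocytes secrete the plasma serpins of clades A, C, D, F and G, which restrain neutrophil elastase, clotting proteases, plasmin and the first steps of complement. Clade B serpins remain inside cells, and a few members bind hormones or assist collagen folding instead of inhibiting proteases.

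The libraries held 36975231 to 38470468 counts each. Ncor1 itself was at 6.78, 6.70 and 7.72 FPKM (counts scaled by gene length and library total) in flox and at 5.34, 6.63 and 4.93 FPKM in NcoR1ΔHep. Its edgeR log2 fold change was -0.31 (SE 0.21, adjusted p = 0.931), so the deletion rests on the labels. The library NcoR1ΔHep 1 stood apart in sex-linked RNA. It had 17138 counts of Xist against 6 to 18 in the other 5 libraries, and 12 counts of the Y-linked Ddx3y against 2008 or more. Its summed FPKM over 15 genes with female-biased expression in liver was 2909, against 30.0 to 49.3 in the others, and over 14 male-biased genes 183, against 1665 to 3547. Where a printed fold change of a member rests on it, the value without it is given as well. Hepatocyte markers summed to 51091 to 58534 FPKM over 8 genes in every library, and Alb made up most of this, at 31817 to 42940 FPKM. Single markers differed more in NcoR1ΔHep 1. Apob was at 144 FPKM there against 270 to 604 elsewhere, and Hpd at 2063 against 931 to 1209. Sinusoidal endothelial markers were lower in NcoR1ΔHep for 8 of 8 genes (median log2 fold change -0.72, and -1.11 without NcoR1ΔHep 1). Macrophage markers were lower for 7 of 8 (-0.39, and -0.29 without it), and stellate cell markers were higher for 7 of 8 (0.13, and 0.30 without it). The endothelial markers summed to 131, 48.0 and 73.7 FPKM in flox and to 79.4, 43.3 and 32.3 FPKM in NcoR1ΔHep. Their sum thus overlapped between the groups and was highest in flox 1. No marker gene of these lists passed edgeR's adjusted threshold.

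The gene family is strongly clustered in the genome. In the RefSeq annotation of GRCm38.p6, 22 of the 23 clade A members lie on chromosome 12 between 103616675 and 104414334, and Serpina7 lies on the X chromosome. Of the clade B members, 7 lie on chromosome 13 and 6 on chromosome 1. The Serpina1 copies, which encode forms of alpha-1-antitrypsin, are so alike that their promoters can be read side by side. Below are 96 bases of each, all on the minus strand of chromosome 12 and ending before the annotated gene start, from RefSeq promoters of GRCm38.p6. They are shown because these 5 neighbouring genes had near-identical promoters and unequal levels. Capitals mark GTTAATATTCAC, which begins with GTTAAT, the half-site of the hepatocyte factor HNF1.
Serpina1a: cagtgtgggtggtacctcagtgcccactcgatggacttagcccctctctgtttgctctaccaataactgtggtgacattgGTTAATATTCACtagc
Serpina1b: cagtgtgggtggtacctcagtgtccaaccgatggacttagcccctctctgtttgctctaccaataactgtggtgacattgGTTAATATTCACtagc
Serpina1c: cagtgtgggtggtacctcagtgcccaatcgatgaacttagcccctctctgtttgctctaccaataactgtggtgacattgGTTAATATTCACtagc
Serpina1d: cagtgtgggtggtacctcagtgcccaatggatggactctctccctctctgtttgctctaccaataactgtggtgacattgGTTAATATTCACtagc
Serpina1e: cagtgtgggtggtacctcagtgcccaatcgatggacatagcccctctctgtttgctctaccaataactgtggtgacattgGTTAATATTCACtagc

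The stretches stand at chr12:103863625-103863720 (Serpina1a), chr12:103738200-103738295 (Serpina1b), chr12:103904962-103905057 (Serpina1c), chr12:103773634-103773729 (Serpina1d) and chr12:103956960-103957055 (Serpina1e). Without gaps, the first 4 matched Serpina1e at 97.9%, 96.9%, 97.9% and 93.8% of positions. Counted from the 5′ end of the stretch, with the Serpina1e base first, the substitution A37T was shared by all 4 other copies. The 12-base string was chosen after the sequences were seen. Searched on both strands, it occurred in 5 of 32851 RefSeq promoters of the same length (0.0152%), and these were the 5 genes above. The half-site GTTAAT occurred in 7.10% of those promoters and in 8 of the 38 members with a promoter in the table, which adds Serpina3c, Serpina7 and Serpinb8. A match describes the letters and not a bound site.

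The likeness extends into the transcripts and bears on every value of these paralogs. In the GENCODE M21 transcripts, the share of 50-base words that also occur in another gene was 57.6% for Serpina1a, 29.5% for Serpina1b, 74.2% for Serpina1c, 50.9% for Serpina1d and 34.6% for Serpina1e. Reads from such stretches may have been split, dropped or counted for a neighbour, and the counting program is not given in the sources used here. The level of each Serpina1 copy is therefore uncertain, and their sum is given beside it. In the Serpina3 group the share was 19.1% for Serpina3m, 15.5% for Serpina3g, 14.0% for Serpina3k, 10.6% for Serpina3f, 6.90% for Serpina3n and 4.25% for Serpina3c. Serpina3k and Serpina3m share mostly with each other. Serpina11 shares 35.7% with the gene model Gm28577. In all, 12 of 46 members shared at least 10% of their words, and Serpina6, Serpina7, Serpind1, both clade F genes, Serping1 and Serpinh1 shared none.

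Serpin transcripts formed a large part of the liver RNA, and clade A held most of it. The 46 genes took 3.69%, 3.44% and 5.18% of the counts of the flox libraries and 2.87%, 4.74% and 3.70% of those of the NcoR1ΔHep libraries. The highest shares were in flox 3 and NcoR1ΔHep 2 and the lowest in NcoR1ΔHep 1, so the groups overlapped. On the FPKM scale, clade A made up 86.1% to 91.6% of the serpin total in each library. Averaged over the 6 libraries, Serpina3k and Serpina1e were the highest members, and 15 genes had a mean above 100 FPKM. At the other end, 20 members had a mean under 1 FPKM, and Serpina1f, Serpinb5 and Serpinb12 had no count in any library.

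**Figure D1:**
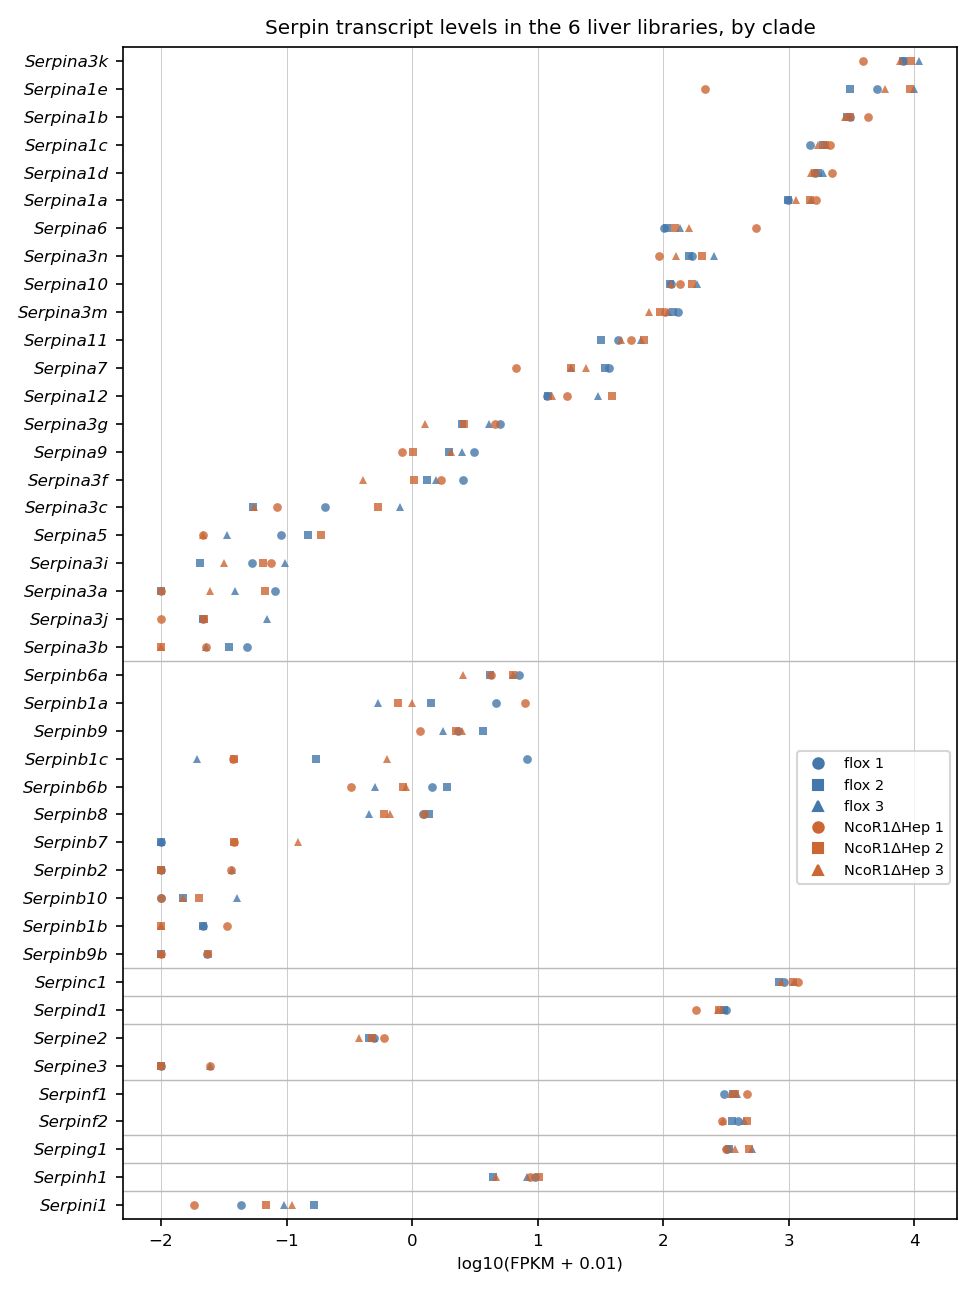
Level of Serpin genes with a count, as log10(FPKM + 0.01), in the 3 flox (blue) and 3 NcoR1ΔHep (orange) libraries. Grey lines separate clades A to I, and each point is 1 library. Most plasma serpins lie near or above 100 FPKM, the clade B and E genes shown lie below 10 FPKM, and the NcoR1ΔHep 1 point of Serpina1e lies far to the left of the other 5.

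The design asks which genes differ between the genotypes. Of the 46 members, 32 had enough counts to be tested, and none was called by edgeR's quasi-likelihood test (0 of 32; smallest adjusted p = 0.931). The background was the same, with 0% of 13205 genes called. DESeq2 also called none of the 42 members it tested, against 0.0246% of 20289 genes. At an unadjusted p under 0.05 there was 1 member by edgeR (Serpina6), beside a background of 3.35%, and 2 of 42 by DESeq2 (Serpina6 and Serpinb7), beside 3.02%. Of the 32, 15 were higher and 17 lower in NcoR1ΔHep (46.9% and 53.1%, beside 53.5% and 46.5% of all tested genes). The members' median log2 fold change was -0.16, while all tested genes had a median of 0.03 and quartiles of -0.21 and 0.27. Without NcoR1ΔHep 1 the median of the same 32 was -0.05, and without flox 3 it was 0.08.

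**Figure D2:**
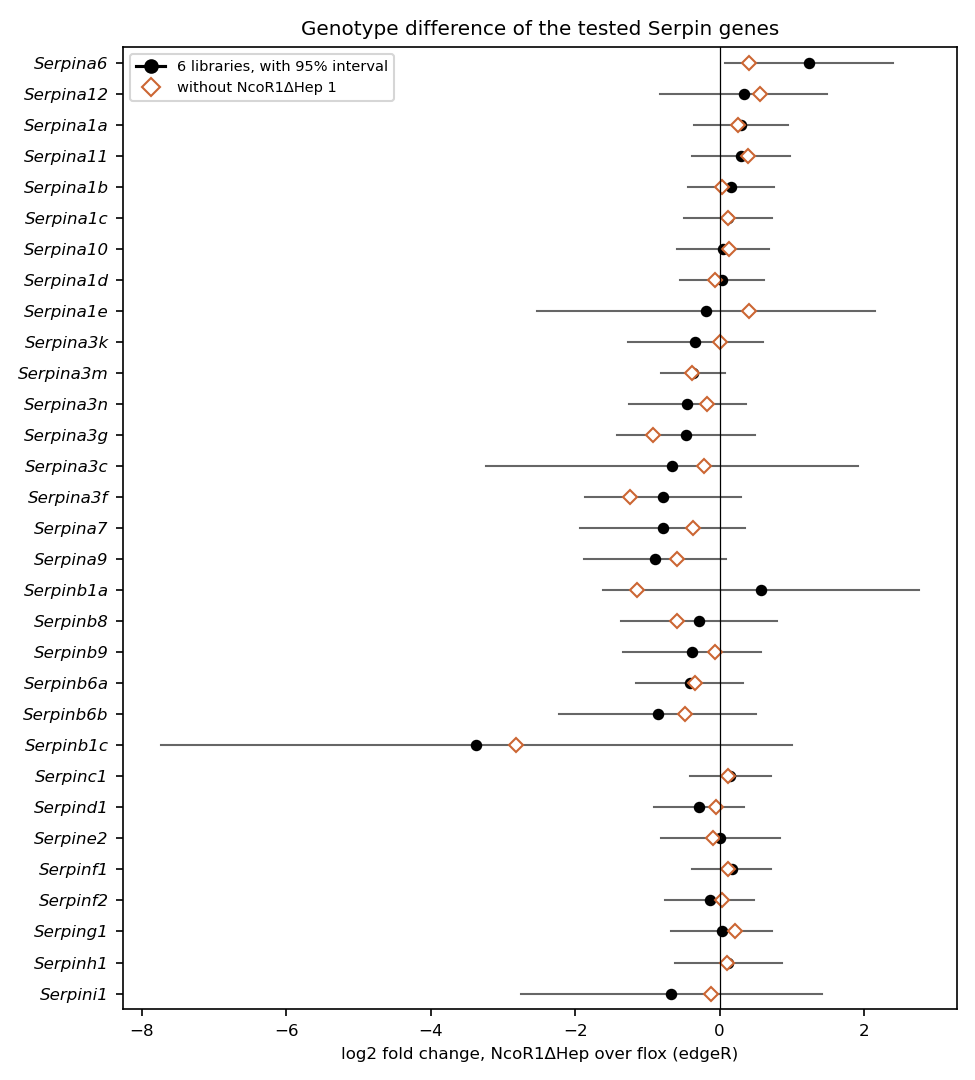
The edgeR log2 fold change, NcoR1ΔHep over flox, of tested Serpin genes, ordered by clade (black points; lines are 95% intervals), with the same value after leaving out NcoR1ΔHep 1 (open diamonds). Only the interval of Serpina6 lies clear of 0, and its diamond moves from 1.24 to 0.41.

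Levels of the alpha-1-antitrypsin genes overlapped between the genotypes, and 1 copy was far lower in 1 library. Serpina1e was at 5024, 3067 and 10029 FPKM in flox and at 216, 9189 and 5874 FPKM in NcoR1ΔHep. NcoR1ΔHep 1 lay 30.7-fold below the mean of the other 5 libraries and 14.2-fold below the lowest of them. The edgeR log2 fold change between genotypes was -0.19 (SE 1.02, adjusted p = 0.988), and 0.40 (SE 0.48, adjusted p = 0.998) without that library. With all 6 libraries, limma gave -1.24 on log2(FPKM + 1) and -1.21 with voom. Among the other 5 libraries Serpina1e still ranged from 3067 to 10029 FPKM. The gene was the largest single Serpina1 transcript in 5 libraries, with 29.1% to 54.2% of the Serpina1 FPKM, and 2.07% in NcoR1ΔHep 1.

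Its 4 neighbours spanned at most a 1.68-fold range over the 6 libraries. Serpina1b was at 3087, 2924 and 3108 FPKM in flox and at 4271, 3059 and 2795 FPKM in NcoR1ΔHep. Serpina1a was at 979, 987 and 1497 FPKM in flox and at 1644, 1476 and 1135 FPKM in NcoR1ΔHep. For these and the next pair the groups overlapped, and NcoR1ΔHep 1 was the highest of the 6 libraries. Serpina1c was at 1472, 1870 and 1983 FPKM in flox and at 2125, 1950 and 1708 FPKM in NcoR1ΔHep. Serpina1d was at 1614, 1699 and 1887 FPKM in flox and at 2198, 1615 and 1518 FPKM in NcoR1ΔHep. The near-identical promoter stretches printed above thus belonged to genes of which 4 were highest and 1 was lowest in the same library.

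Summed over the 5 copies, the genotypes did not separate. The sum was 12177, 10547 and 18503 FPKM in flox and 10455, 17290 and 13030 FPKM in NcoR1ΔHep, with means of 13742 ± 4202 and 13591 ± 3452 (SD, n = 3 each). With the counts of the 5 copies added up as 1 feature, edgeR gave a log2 fold change of 0.02 (SE 0.35, 95% interval -0.80 to 0.84, adjusted p = 0.993), whose sign depended on which library was left out. The sum in NcoR1ΔHep 1 lay just below that of flox 2, because the other copies were higher there, at 10238 FPKM together against 7153 to 8474 FPKM in the rest.

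**Figure D3:**
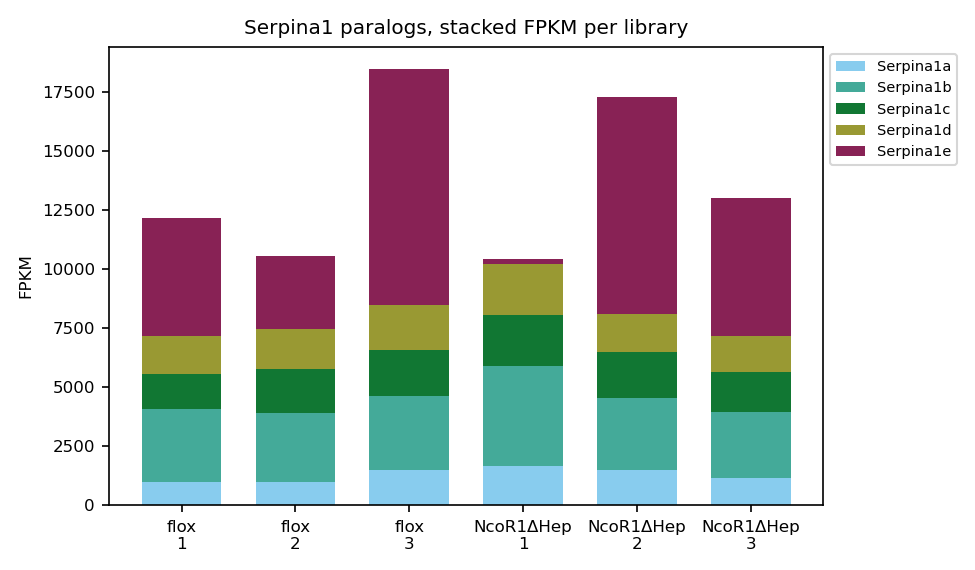
Stacked FPKM of the 5 Serpina1 paralogs in each library. The Serpina1e segment fills 2.07% of the bar of NcoR1ΔHep 1 and 29.1% to 54.2% of the other bars, while each of the other 4 segments differs at most 1.68-fold over the 6 libraries.

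The Serpina3 group, the mouse counterparts of alpha-1-antichymotrypsin, was led by Serpina3k, the serpin with the highest mean level over the 6 libraries, although Serpina1b was above it in NcoR1ΔHep 1. Serpina3k was at 8136, 8173 and 10946 FPKM in flox and at 3877, 9453 and 7704 FPKM in NcoR1ΔHep. The value of NcoR1ΔHep 1 was the lowest, and the other 2 of its group lay among the flox values or close below them. The log2 fold change was -0.34 (SE 0.41, adjusted p = 0.938), and 0.00 (SE 0.27) without NcoR1ΔHep 1. Serpina3k held up to 97.4% of the FPKM of the 10 Serpina3 genes, and their sum was 8444, 8457 and 11317 FPKM in flox and 4080, 9756 and 7910 FPKM in NcoR1ΔHep (log2 fold change -0.34, SE 0.40, adjusted p = 0.936, and -0.01 without NcoR1ΔHep 1).

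Serpina3m was the 1 tested member whose groups did not overlap after TMM scaling. It was at 130, 120 and 110 FPKM in flox and at 104, 95.3 and 77.5 FPKM in NcoR1ΔHep. All 3 NcoR1ΔHep libraries lay below all 3 flox libraries. With edgeR it had a log2 fold change of -0.37 (SE 0.19, adjusted p = 0.931, 95% interval -0.81 to 0.07), and -0.39 without NcoR1ΔHep 1. This 1 member of 32 (3.12%) stands beside 8.82% of all tested genes whose groups did not overlap, 5.53% lower and 3.29% higher. On FPKM, without TMM factors, Serpind1 separated as well, which makes 2 members, both lower, beside 7.56% of all genes (4.95% lower and 2.61% higher). Serpina3m has 16% of its 50-base words in common with Serpina3k. Its counts were 4824 to 8252 per library, against 240011 to 668591 for Serpina3k. The level of Serpina3m is therefore uncertain too, and the part of shared reads in it was not tested.

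Serpina3n, the member of the group known to rise in the acute phase, was at 170, 160 and 255 FPKM in flox and at 93.5, 203 and 127 FPKM in NcoR1ΔHep. Its log2 fold change was -0.45 (SE 0.35, adjusted p = 0.931), and -0.17 without NcoR1ΔHep 1, the lowest library. Serpina3f and Serpina3g, which are known from blood-forming and immune cells, were low. Serpina3f was at 2.54, 1.29 and 1.55 FPKM in flox and at 1.70, 1.03 and 0.398 FPKM in NcoR1ΔHep. Serpina3g was at 5.02, 2.51 and 4.10 FPKM in flox and at 4.55, 2.60 and 1.26 FPKM in NcoR1ΔHep. Both genes were highest in flox 1 and lowest in NcoR1ΔHep 3, and the groups overlapped.

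Their log2 fold changes were -0.78 (SE 0.47) and -0.47 (SE 0.41), each with an edgeR adjusted p = 0.931. Without NcoR1ΔHep 1 they were -1.25 (SE 0.45) and -0.92 (SE 0.37), each with an adjusted p = 0.998. In that fit they were the 2 members of 33 with an unadjusted p under 0.05, beside 2.43% of all genes. The summed FPKM of T and NK cell markers was 2.07 to 3.21 in flox and 1.64 to 4.09 in NcoR1ΔHep. It was highest in NcoR1ΔHep 1 and lowest in NcoR1ΔHep 3. The sum of 8 sinusoidal endothelial markers was 48.0 to 131 FPKM in flox and 32.3 to 79.4 FPKM in NcoR1ΔHep, highest in flox 1 and lowest in NcoR1ΔHep 3. In bulk tissue, fewer cells of a type and less RNA per cell cannot be told apart, and the part of these cells in the 2 genes was not tested. Serpina3c was at 0.191, 0.044 and 0.786 FPKM in flox and at 0.075, 0.524 and 0.045 FPKM in NcoR1ΔHep, and Serpina3a, Serpina3b, Serpina3i and Serpina3j were too low to test.

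Both hormone-carrying serpins had their extreme value in NcoR1ΔHep 1, in opposite directions. Serpina6, which encodes corticosteroid-binding globulin, the plasma carrier of glucocorticoids, was at 102, 107 and 137 FPKM in flox and at 552, 125 and 161 FPKM in NcoR1ΔHep. NcoR1ΔHep 1 lay 4.36-fold above the mean of the others, while NcoR1ΔHep 2 lay within the flox range. The log2 fold change of 1.24 (SE 0.51, 95% interval 0.08 to 2.41) had an unadjusted p = 0.0394 and an adjusted p = 0.931 by edgeR. Without that library it was 0.41 (SE 0.26, adjusted p = 0.998). Serpina7, the X-linked gene of thyroxine-binding globulin, moved the other way. It was at 37.1, 34.6 and 18.3 FPKM in flox and at 6.77, 18.4 and 24.5 FPKM in NcoR1ΔHep, with overlap between the groups and its lowest value in NcoR1ΔHep 1. The log2 fold change was -0.78 (SE 0.50, adjusted p = 0.931), and -0.37 (SE 0.35) without that library.

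The remaining clade A genes were those of less common inhibitors. Serpina10, the protein Z-dependent inhibitor of clotting factor Xa, was at 115, 113 and 185 FPKM in flox and at 137, 171 and 116 FPKM in NcoR1ΔHep. Serpina12, the adipokine vaspin, was at 11.9, 12.2 and 30.4 FPKM in flox and at 17.3, 38.8 and 13.0 FPKM in NcoR1ΔHep. In both genes flox 3 and NcoR1ΔHep 2 were the highest libraries, as they were in Serpina11, which ranged from 31.9 to 70.5 FPKM. Serpina9, a serpin of germinal-centre B cells, was low, at 3.12, 1.95 and 2.49 FPKM in flox and at 0.828, 1.01 and 2.03 FPKM in NcoR1ΔHep, where 1 library reached the flox range. Its log2 fold change was -0.89 (SE 0.43, adjusted p = 0.931), and -0.59 without NcoR1ΔHep 1. The summed FPKM of B and plasma cell markers was 2.52 to 3.21 in flox and 2.42 to 4.32 in NcoR1ΔHep, highest in NcoR1ΔHep 1, where Serpina9 was lowest. Serpina5, the protein C inhibitor, had at most 15 counts in a library.

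Viewed by library, NcoR1ΔHep 1 lay outside the range of the other 5 in 20 of the 32 tested members (62.5%, beside 55.5% of all tested genes), above all of them in 9 (beside 33.8%) and below all in 11 (beside 21.7%). Of the 32, 11 differed 2-fold or more from the mean of the other 5 libraries (34.4%, beside 18.1% of all tested genes). Of these, 9 were lower (28.1%, beside 7.04%) and 2 higher (6.25%, beside 11.1%). The lower ones were Serpina1e, Serpina3c, Serpina3k, Serpina7, Serpina9, Serpinb1c, Serpinb6b, Serpinb9 and Serpini1, and the higher ones were Serpina6 and Serpinb1a. For Serpinb1c and Serpina3c other libraries were as low or lower. This is 1 library, so the counts describe it without a replicate check. The sex-linked and sex-biased transcripts given at the outset differed in the same library, and their part in these values cannot be told apart from anything else that sets 1 library apart.

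**Figure D4:**
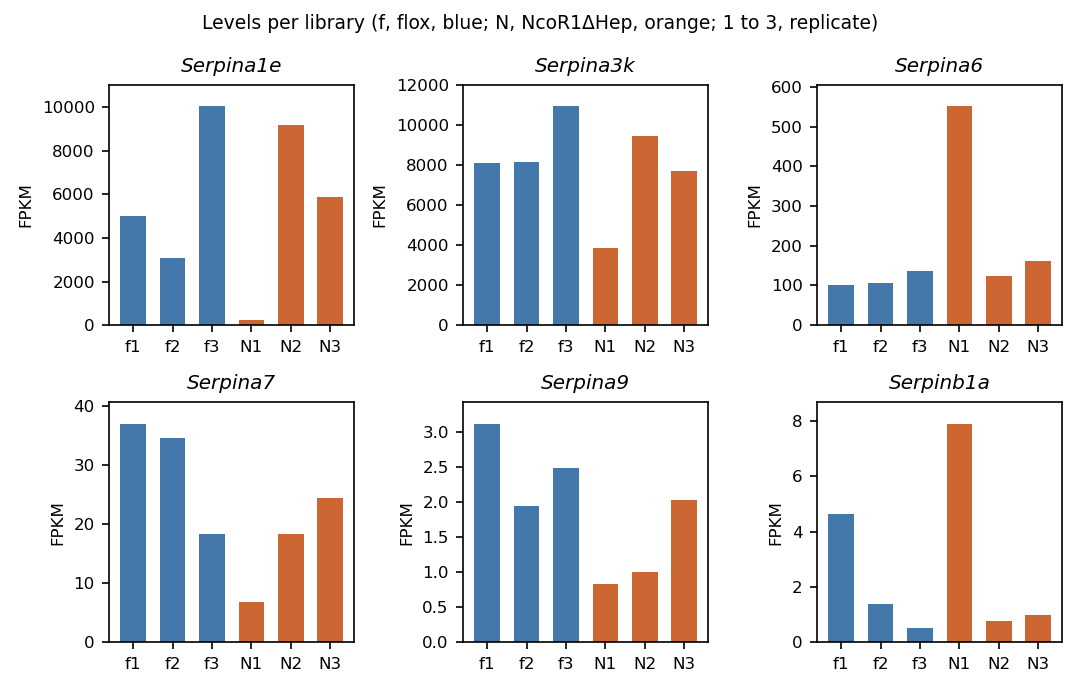
FPKM per library of 6 members with a low or high value in NcoR1ΔHep 1 (bar N1), each on a linear axis from 0. Serpina1e, Serpina3k, Serpina7 and Serpina9 have their lowest bar there, Serpina6 and Serpinb1a their highest, and Serpinb1a is also raised in flox 1 (4.63 FPKM).

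A second pattern crossed the genotypes. In 10 of the 32 tested members the 2 highest libraries were flox 3 and NcoR1ΔHep 2 (31.2%, beside 7.42% of all tested genes), and in 2 members these were the lowest (6.25%, beside 9.16%). They included Serpina10, Serpina11, Serpina12, Serpina1e, Serpina3c, Serpina3k, Serpina3n, Serpinf2 and Serping1, among which are genes of inhibitors of plasmin and complement C1. The order was noticed in these data and carries no test. The acute-phase gene Saa1 had the same 2 libraries on top, at 2427 and 2092 FPKM against 20.7 to 129 FPKM elsewhere. Lcn2 was at 155 and 117 FPKM there and at 8.48 to 9.96 FPKM in the others. The listed acute-phase and interleukin-6 signalling genes did not all share this order. Crp was highest in flox 2 and Orm3 in NcoR1ΔHep 1. Neutrophil markers summed to 23.9 and 13.1 FPKM in flox 3 and NcoR1ΔHep 2 and to 3.61 to 8.0 FPKM in the others, over 9 genes. Most of this came from S100a8 (11.2 and 5.47 FPKM) and S100a9 (9.50 and 5.63 FPKM). The other markers did not all share the order, as Csf3r was highest in NcoR1ΔHep 1 and Cxcr2 in NcoR1ΔHep 3. Ly6g had 0 counts in 5 libraries and 1 count in flox 3. Among the proteases that neutrophils carry, the elastase gene Elane had 1 to 4 counts per library. The part of these genes and cells in the serpin levels was not tested.

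**Figure D5:**
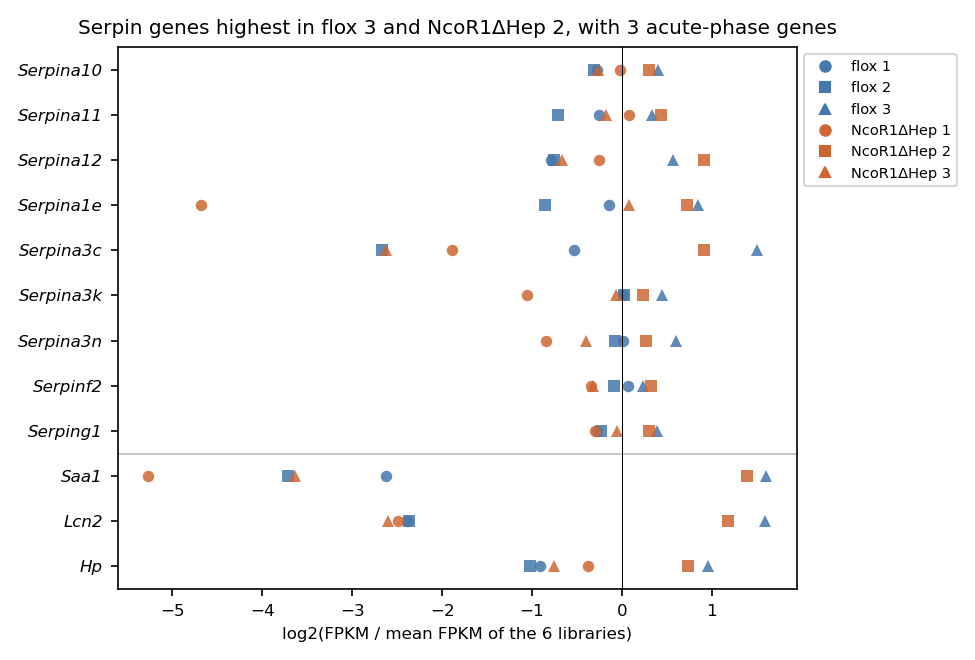
Level of 9 members whose highest libraries were flox 3 and NcoR1ΔHep 2, and of the acute-phase genes Saa1, Lcn2 and Hp, as log2 of FPKM over the mean of the 6 libraries. Each point is 1 library, and the points of flox 3 (blue triangles) and NcoR1ΔHep 2 (orange squares) lie at the right of each row. The gap is wider in these acute-phase genes than in most serpins. They were picked from a longer list whose genes did not all share this order.

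Both anticoagulant serpins made by hepatocytes were abundant in every library. Serpinc1, which encodes antithrombin, the heparin-dependent inhibitor of thrombin and factor Xa, was at 924, 839 and 1101 FPKM in flox and at 1195, 1086 and 872 FPKM in NcoR1ΔHep. The groups overlapped throughout, and edgeR's log2 fold change was 0.15 (SE 0.24, adjusted p = 0.951, 95% interval -0.41 to 0.71). Serpind1, the thrombin inhibitor heparin cofactor II, was at 315, 303 and 298 FPKM in flox and at 182, 277 and 276 FPKM in NcoR1ΔHep. All NcoR1ΔHep values lay below all flox values in FPKM, but after TMM scaling the groups overlapped. Its log2 fold change was -0.28 (SE 0.27, adjusted p = 0.931), and -0.05 (SE 0.20) without NcoR1ΔHep 1.

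Serpins of fibrinolysis and complement showed no separation either. Serpinf2, the plasmin inhibitor alpha-2-antiplasmin, was at 393, 351 and 439 FPKM in flox and at 294, 466 and 299 FPKM in NcoR1ΔHep. Serping1, the C1 inhibitor that restrains complement and plasma kallikrein, was at 321, 332 and 511 FPKM in flox and at 316, 480 and 375 FPKM in NcoR1ΔHep, with a log2 fold change of 0.03 (SE 0.30, adjusted p = 0.992). Its sign changed when single libraries were left out. Serpinf1, which encodes the non-inhibitory factor PEDF, was at 304, 363 and 391 FPKM in flox and at 464, 374 and 350 FPKM in NcoR1ΔHep (log2 fold change 0.17, SE 0.24, adjusted p = 0.949). NcoR1ΔHep 1 was the highest library for Serpinf1 and the lowest for Serpinf2, its neighbour on chromosome 11.

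In clade E, Serpine2, which inhibits thrombin at cell surfaces, ranged from 0.367 to 0.585 FPKM, and Serpine3 had at most 1 count in a library.

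The intracellular clade B serpins, which protect cells from their own and other cells' proteases, were low in these whole-liver libraries, with a clade sum of 8.29 to 24.9 FPKM. Of 13 members 6 were tested, 5 of these lower and 1 higher in NcoR1ΔHep, with a median of -0.40, beside 46.5% of all tested genes lower. Without NcoR1ΔHep 1 all 6 were lower, with a median of -0.53. Without flox 1, Serpinb1a and Serpinb1c were higher in NcoR1ΔHep (1.58 and 1.44), and Serpinb6a and Serpinb6b stayed lower (-0.32 and -0.84). The clade sum was highest in flox 1 and lowest in NcoR1ΔHep 3. Serpinb6a, an inhibitor of cathepsin G, was the highest of them on average, at 7.10, 4.17 and 6.34 FPKM in flox and at 4.24, 6.30 and 2.53 FPKM in NcoR1ΔHep (log2 fold change -0.41, SE 0.32, adjusted p = 0.931). Serpinb6b was at 1.44, 1.89 and 0.50 FPKM in flox and at 0.318, 0.836 and 0.891 FPKM in NcoR1ΔHep (-0.86, SE 0.59, adjusted p = 0.931, -0.48 without NcoR1ΔHep 1 and -0.36 without flox 2). Both overlapped between groups. Serpinb9, an inhibitor of granzyme B, ranged from 1.76 to 3.68 FPKM in flox and from 1.14 to 2.47 FPKM in NcoR1ΔHep. Gzmb itself had 13 to 26 counts per library.

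Serpinb1a and Serpinb1c, neighbours on chromosome 13 and paralogs of the human inhibitor of neutrophil elastase, each depended on 1 or 2 libraries. Serpinb1a was at 4.63, 1.39 and 0.524 FPKM in flox and at 7.89, 0.762 and 0.993 FPKM in NcoR1ΔHep. High values occurred once in each group, and the log2 fold change of 0.58 (SE 0.95, adjusted p = 0.951) became -1.15 (SE 0.80, adjusted p = 0.998) without NcoR1ΔHep 1. Serpinb1c had 897, 18 and 1 counts in flox and 3, 3 and 67 counts in NcoR1ΔHep. Almost all its flox signal came from flox 1, and the log2 fold change of -3.37 (SE 1.90, adjusted p = 0.931) became 1.44 without that library. These paralogs share 2.81% and 6.28% of their 50-base words with other genes.

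Serpinh1 and Serpini1 close the family. Serpinh1, which encodes HSP47, the collagen chaperone of the endoplasmic reticulum, was at 9.50, 4.36 and 8.21 FPKM in flox and at 8.74, 10.2 and 4.69 FPKM in NcoR1ΔHep, with full overlap (log2 fold change 0.12, SE 0.32, adjusted p = 0.975, and below 0 without flox 2 or NcoR1ΔHep 2). Of 14 collagen and collagen-processing genes, 5 were higher and 9 lower in NcoR1ΔHep, with a median of -0.13 that became 0.06 without NcoR1ΔHep 1. Serpini1, the neuronal serpin neuroserpin, had 1 to 19 counts per library, the lowest in NcoR1ΔHep 1. Its log2 fold change was -0.67 (SE 0.91, adjusted p = 0.947), and -0.12 without that library.

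Genes that work with the serpins were read from lists of proteases, other inhibitors, receptors and regulators, and none of their members passed edgeR's adjusted threshold. Of the tested members of each list, 3 genes of neutrophil, mast cell and lymphocyte proteases had 1 higher and 2 lower in NcoR1ΔHep (median -0.10, and 0.01 without NcoR1ΔHep 1). Of 17 target proteases of clotting, fibrinolysis and complement, 10 were higher and 7 lower (median 0.01, and 0.09 without NcoR1ΔHep 1). The smallest p was that of Masp1, a complement protease held by C1 inhibitor, at 16.3, 10.6 and 10.7 FPKM in flox and 6.65, 10.4 and 7.31 FPKM in NcoR1ΔHep (log2 fold change -0.59, SE 0.25). Of 22 other protease inhibitors tested, 12 were higher and 10 lower (median 0.01, and 0.05 without NcoR1ΔHep 1), and Mug1, a murinoglobulin, had 161 FPKM in NcoR1ΔHep 1 against 510 to 799 FPKM elsewhere. Of 10 cofactors and clearance receptors, 5 were higher and 5 lower (median 0.01, and 0.09 without NcoR1ΔHep 1). Among these Lrp1, the receptor that removes serpin-protease complexes, was at 45.8, 36.9 and 34.0 FPKM in flox and at 21.4, 28.6 and 21.8 FPKM in NcoR1ΔHep, without overlap (-0.67, SE 0.23, edgeR adjusted p = 0.931).

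Acute-phase and interleukin-6 signalling genes had 6 of 22 higher and 16 lower (median -0.13, and 0.09 without NcoR1ΔHep 1). Their smallest p was that of Il6st, the shared receptor chain gp130, at 26.8, 13.7 and 12.6 FPKM in flox and 8.92, 9.05 and 7.70 FPKM in NcoR1ΔHep (-1.0, SE 0.27). Of 9 hepatocyte transcription factors that drive serpin genes, 4 were higher and 5 lower (median -0.13, and 0.00 without NcoR1ΔHep 1), with Onecut1 at 25.1, 6.94 and 11.7 FPKM in flox and 0.395, 6.95 and 1.03 FPKM in NcoR1ΔHep (-2.32, SE 0.93). Of 11 genes of the glucocorticoid and thyroid hormone axis that Serpina6 and Serpina7 serve, 9 were higher and 2 lower (median 0.18, and 0.12 without NcoR1ΔHep 1). Of 18 secretory and quality-control genes, 2 were higher and 16 lower (median -0.24, and -0.11 without NcoR1ΔHep 1). The medians are read against 0.03 for all tested genes, and 0.02 without NcoR1ΔHep 1.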

How the data were processed

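The authors deposited a table of raw counts per gene symbol and a table of FPKM for the same 6 liver libraries. Each deposited FPKM equals the count over gene length and library total (length whole within 0.01 in 100% of 12656 genes). Per the submitters' processing notes the builds are GRCm38, mm10 and hg38, with no role stated. Aligner, counter and strand setting: not given in the sources used here. Genes were kept with filterByExpr (minimum count 10, minimum total 15), which left 13205, scaled with TMM factors and tested with edgeR 4.0.16 (quasi-likelihood, two-sided, under R 4.3.3). Benjamini-Hochberg adjustment ran over all genes, with a threshold of 0.05. DESeq2 1.42.0 and limma 3.58.1 served as alternatives. Members and lists were chosen with earlier results of these data known. One member, counted in the totals, is not reported here by name. Fold changes are otherwise printed for the most abundant tested member of each clade, the 8 with the smallest p, the summed Serpina1 and Serpina3 groups and, chosen after their values were seen, Serpina1e, Serpina3g, Serpina3n and Serpinb1a. All 46 members matched RefSeq and GENCODE M21. Promoters run from 250 bases before to 50 after the gene start.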

Additional observations from a re-analysis of the deposited data

How the results depend on the processing

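No Serpin gene passed the threshold under any alternative. Over all genes DESeq2 called 5, against 0 with edgeR. The median log2 fold change of the tested members was 0.0204 when genes needed 1 CPM in 3 libraries, -0.0501 with limma on log2(FPKM + 1), and -0.306 to 0.0815 leaving out single libraries. Of 316 gene values under the alternatives 305 kept their direction, and the 11 that did not all came from leaving out a library, in 6 genes. Leaving out libraries gave -6.51 to 1.44 for Serpinb1c, -0.13 to 0.29 for Serping1, -0.12 to 0.33 for Serpinh1, -1.49 to 0.0217 for Serpini1, -0.84 to 0.43 for Serpina1e and -1.15 to 1.58 for Serpinb1a. Without a sign change it gave -1.25 to -0.43 for Serpina3f, -0.92 to -0.16 for Serpina3g, -0.58 to 0.00 for Serpina3k, -0.77 to -0.17 for Serpina3n, 0.41 to 1.58 for Serpina6, -1.28 to -0.37 for Serpina7, -1.49 to -0.59 for Serpina9, -0.77 to -0.19 for Serpinb6a, -1.24 to -0.36 for Serpinb6b and -0.46 to -0.05 for Serpind1. The summed Serpina1 value was -0.00199 with library totals only, -0.00431 with each of the 3 limma fits on FPKM, and -0.16 to 0.31 leaving out libraries; the cause was not tested. Same-numbered libraries did not deviate together (correlations 0.02, -0.38 and -0.52), and the other combinations gave -0.27 to 0.63. With 3 libraries per group these values cannot settle whether the numbers mark pairs. With the replicate block edgeR called 0 genes, the member median was -0.17 and Serpina1e was at -1.03. Serpina1e was at -1.21 with limma-voom and at -1.24 with each limma fit on FPKM, against -0.19. The 14 untested members had too few counts to pass the filter, and the part of depth in this was not tested.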

Other observations

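Among members too low to test, Serpinb7, a clade B serpin known from skin and kidney, had 0 counts in all 3 flox libraries and 2, 2 and 8 counts in NcoR1ΔHep. DESeq2 gave it an unadjusted p = 0.0275. A total of 0 in a library allows up to 3 counts, so 2 of the 3 NcoR1ΔHep values are not distinguishable from 0 by counting error.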
